A study of Mus musculus with 8 samples.

Results

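The genes described here are 10 integrin subunits of mouse cardiac fibroblasts: the alpha subunits Itga1, Itga4, Itga5, Itga8, Itga11 and Itgav and the beta subunits Itgb1, Itgb3, Itgb5 and Itgb8. They were taken by symbol from a table of raw RNA-seq counts for 55414 genes, and all 10 were among the 15150 genes with enough counts to be tested. Cardiac fibroblasts, which make and hold the collagen scaffold of the heart, had been given at passage 2 an adenovirus carrying Has2, the gene of a hyaluronan synthase, or a control adenovirus carrying GFP. Each virus had 4 libraries, numbered 1 to 4, and the libraries of a number share a preparation identifier, so each number is a pair of GFP and Has2 cultures. Replicates 1 and 2 came from females (identifiers with S) and replicates 3 and 4 from males (identifiers with R), and an effect of sex and one of the preparation series cannot be told apart. Both groups were C57BL/6J cells, starved of serum for 24 h, exposed to virus for 5 h and then kept for 48 h in medium with bFGF and TGFb at 20 ng/mL. All values are therefore from stimulated cells, and no unstimulated or uninfected culture was analysed. The sample labels give the genotype as Wild Type, while the treatment text names Has2fl/fl mice, and animal ages are not given. Whether the 4 preparations are separate animals is not stated either, and the p-values cover the spread among these cultures only, which may be technical.

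Integrins are adhesion receptors made of 1 alpha and 1 beta chain, and the pair of chains sets the ligand. They link the matrix outside the cell, through talin and kindlin bound to the beta tail, to the actin cytoskeleton inside. In heart fibroblasts they anchor contractile cells to fibronectin and collagen, and those with the Itgav chain also release active TGF-beta from its stored form in the matrix.

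The GC content of the longest transcript of these genes lines up with the main difference found between the cultures below. Their coding sequences differ in base composition too, but coding GC content was not set against that difference. A short matching stretch of each beta subunit shows how the coding sequences differ. Each stretch holds 60 bases of coding sequence, 5′ to 3′, around the metal ion site of the domain that grips the ligand. The sequences come from GENCODE M21 transcripts, positions are counted from the A of the start codon, and capitals mark G and C.
Itgb1: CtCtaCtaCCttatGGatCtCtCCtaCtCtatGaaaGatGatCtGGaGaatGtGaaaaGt
Itgb3: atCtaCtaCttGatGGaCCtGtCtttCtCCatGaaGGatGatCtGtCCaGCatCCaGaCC
Itgb5: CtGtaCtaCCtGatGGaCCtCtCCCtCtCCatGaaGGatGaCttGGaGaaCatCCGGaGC
Itgb8: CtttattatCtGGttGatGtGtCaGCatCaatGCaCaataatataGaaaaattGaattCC
These are bases 433 to 492 of Itgb1, 415 to 474 of Itgb3, 418 to 477 of Itgb5 and 445 to 504 of Itgb8. G and C make up 38.3% of the Itgb1 stretch, 46.7% for Itgb3, 53.3% for Itgb5 and 30% for Itgb8.

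For the alpha subunits, the stretch runs from the end of the segment that crosses the membrane into the short tail that faces the cytoplasm. It is shown for the 2 members with the highest and the 2 with the lowest transcript GC content.
Itga5: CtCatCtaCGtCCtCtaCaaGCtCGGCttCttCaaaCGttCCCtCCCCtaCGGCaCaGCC
Itga11: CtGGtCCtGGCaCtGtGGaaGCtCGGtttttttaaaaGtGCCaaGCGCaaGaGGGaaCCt
Itga4: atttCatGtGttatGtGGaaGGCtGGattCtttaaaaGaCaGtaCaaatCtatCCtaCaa
Itga1: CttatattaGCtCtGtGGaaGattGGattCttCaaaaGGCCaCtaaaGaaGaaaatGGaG
These are bases 3058 to 3117 of Itga5, 3475 to 3534 of Itga11, 2983 to 3042 of Itga4 and 3475 to 3534 of Itga1, with a G and C share of 56.7%, 51.7%, 33.3% and 36.7%. Over the whole coding sequence the same 2 genes were again above the other 2: G or C stood at the third position of 72.7% of Itga11 codons and 65.0% of Itga5 codons, against 49.7% for Itga1 and 47.6% for Itga4. Over the longest transcript the 10 genes fell into 2 sets with no member between them. The GC content was 40.4% for Itgb8, 41.1% for Itga4, 42.8% for Itga1, 43.5% for Itgav, 44.0% for Itga8 and 44.8% for Itgb1. It was 52.1% for Itgb3, 55.5% for Itga11, 57.0% for Itgb5 and 57.3% for Itga5.

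The virus labels held in every culture. Has2 stood at 25.2, 7.36, 18.3 and 21.2 CPM (counts scaled to the effective library size) in GFP replicates 1 to 4 and at 9527, 8400, 3207 and 4857 CPM in Has2 replicates 1 to 4, which is 379, 1142, 176 and 229 times as high within the pairs. The viral transcript and the cell's own are counted together. Libraries held 46981231 to 55795187 counts. All 12 fibroblast markers were at 1 CPM or more in every library, and their summed level was 25711 to 39332 CPM with GFP and 25982 to 40059 CPM with Has2. Macrophage markers were also present: 16 of 17 reached 1 CPM in every library, with sums of 1043 to 2577 CPM with GFP and 974 to 2752 CPM with Has2, lowest in replicate 2 of both groups. All 9 lymphocyte markers and 9 of 10 cardiomyocyte markers stayed under 1 CPM in every library. Endothelial markers summed to 31.6 to 57.3 CPM over the 8 libraries, with 4 of 10 at 1 CPM or more in all of them, and smooth muscle and pericyte markers to 80.4 to 130.2 CPM, with 3 of 8. Mesothelial markers summed to 3.16 to 8.14 CPM and platelet markers to at most 26.7 CPM. Of the mesothelial markers, Krt8 and Krt18 passed 1 CPM in GFP replicate 1 alone, at 1.41 and 1.54 CPM. In bulk RNA, fewer cells of a type and less RNA per cell cannot be told apart, and integrins are made by all of these cell types too.

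Itgb1 and Itgb5 were the most abundant of these subunits and Itga4 and Itga8 the least. On a scale of CPM per kilobase of merged exon, Itgb1 (ENSMUSG00000025809), the beta chain shared by most alpha chains here, averaged 388 over the 8 libraries, with a range of 265 to 499.7. Itgb5 (ENSMUSG00000022817), a partner of Itgav on vitronectin, averaged 238 with a range of 175 to 308. The ranges of these 2 genes overlapped.

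Itga5 (ENSMUSG00000000555), the alpha chain of the main fibronectin receptor, came next with a level of 66.3 CPM per kilobase and a range of 53.9 to 82.8, below every library of Itgb5. Itga11 (ENSMUSG00000032243), a receptor chain for fibrillar collagen, averaged 22.7 (12.6 to 39.0). Itgav (ENSMUSG00000027087), which pairs with several beta chains and binds the RGD motif of matrix proteins, averaged 20.6 (12.4 to 30.5), and Itgb3 (ENSMUSG00000020689), its partner best known from platelets, 14.0 (9.95 to 15.5). Itga5 lay above these genes in every library, and these 3 overlapped one another.

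The remaining 4 genes were far lower. Itgb8 (ENSMUSG00000025321), which with Itgav binds latent TGF-beta, averaged 1.74 CPM per kilobase (0.651 to 3.28). Itga1 (ENSMUSG00000042284), a receptor chain for collagen and basement membrane, averaged 1.44 (0.550 to 2.52). Itga4 (ENSMUSG00000027009), which binds fibronectin and the adhesion molecule Vcam1, averaged 0.705 (0.206 to 1.75), and Itga8 (ENSMUSG00000026768), whose best known ligand is nephronectin, 0.507 (0.247 to 0.977). Each of these 4 overlapped the next, and all lay below Itgb3. These values still rested on many counts: 83 to 377 per library for Itga8 and 155 to 1366 for Itga4. With the longest transcript as the length, Itgav (31.4) stood above Itga11 (23.5) and Itga1 (2.44) above Itgb8 (2.30).

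**Figure D1:**
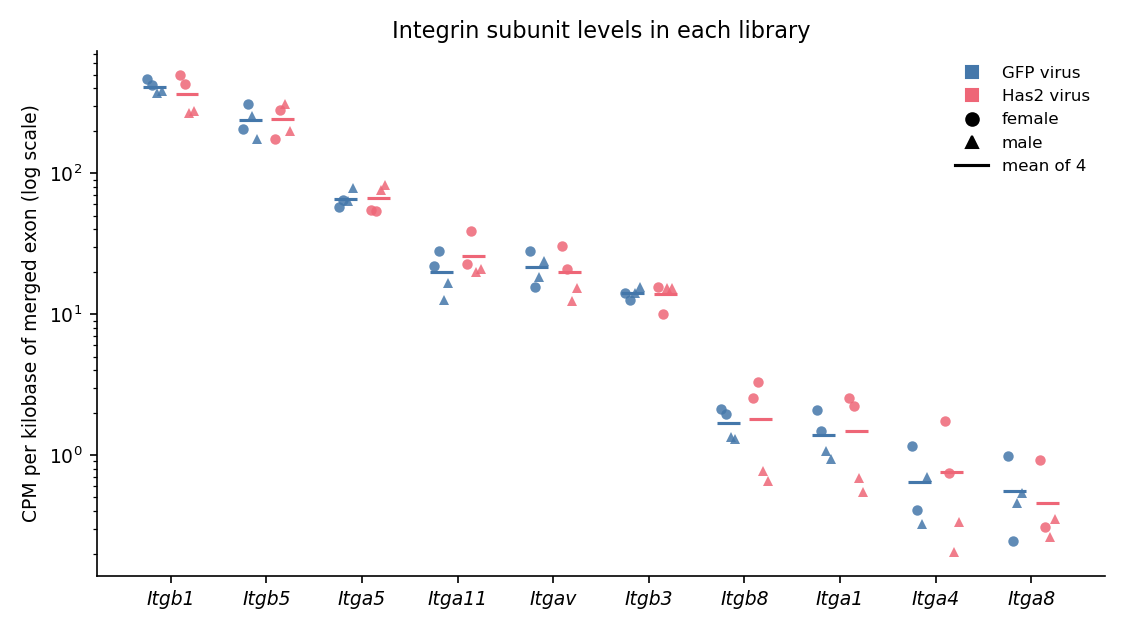
Level of each integrin gene in each library, as CPM per kilobase of merged exon on a log scale, in order of the mean over the 8 libraries. Blue marks are GFP and red marks Has2 libraries, circles are female and triangles male, and bars are means of 4. Itgb1 and Itgb5 lie between 175 and 499.7, Itga5 between 53.9 and 82.8, and the 4 lowest genes at or under 3.28.

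With the GFP virus alone, both male cultures lay below both female cultures for Itga1, Itga11, Itgb1 and Itgb8, and above them, narrowly, for Itgb3; the other 5 genes overlapped. Itgb8 was at 14.3 and 14.9 CPM in the male and 21.7 and 23.5 CPM in the female GFP cultures. With 2 cultures a sex, this order was not tested, and the share of all genes that show such an order was not counted.

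The comparison of Has2 with GFP virus asks whether cells made to express the hyaluronan synthase change the mRNA levels of their matrix receptors. None of the 10 integrin genes passed the test: edgeR's quasi-likelihood test with the replicate number as a block called 0 of 10 at an adjusted p under 0.05, and 1 of all 15150 genes (0.0066%), which was Has2. At an unadjusted p under 0.05 it held 1 of 10, Itga11, against 7.49% of all genes. DESeq2 with the block called 0 of the 10 and 0.403% of all genes, and limma-voom with the block 0 and 0.0066%. The 10 log2 fold changes had a median of -0.08, beside -0.02 over all genes tested, and 3 were above and 7 below 0. Without the replicate block this balance turned, to 6 above and 4 below 0 with a median of 0.02. The design could still bound the average change over the 4 pairs. Its 95% interval lay within 2-fold in either direction for all 10 genes, and within 1.5-fold for 4. Single pairs are not bounded by it: Itga4 differed by 0.88 in replicate 2 and by -1.06 in replicate 4 on the log2 scale. No gene had its 4 Has2 libraries all above or all below its 4 GFP libraries, a pattern held by 0.871% and 1.51% of all genes.

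Among the chains that bind fibronectin or the RGD motif of matrix proteins, Itga5 measured 284, 316, 315 and 385 CPM in GFP replicates 1 to 4. It measured 268, 266, 373 and 409 CPM in Has2 replicates 1 to 4. The groups overlapped, and the male Has2 cultures and GFP replicate 4 were the highest. Its means were 325 ± 42.9 and 329 ± 72.9 CPM (SD, n = 4 each), and on the log2 scale Has2 differed from GFP by 0.00 (SE 0.11; 95% interval -0.25 to 0.26; edgeR adjusted p = 0.999).

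Itgav measured 301, 168, 198 and 255 CPM with GFP and 328, 223, 133 and 164 CPM with Has2. It was higher with Has2 in replicates 1 and 2 and lower in replicates 3 and 4, and its log2 fold change was -0.17 (SE 0.19; edgeR adjusted p = 0.8). Itga4 showed the same split on a much lower level, with 16.3, 5.67, 4.53 and 9.79 CPM with GFP and 24.5, 10.5, 2.88 and 4.68 CPM with Has2. Its log2 fold change was -0.04 with the widest error of the 10 (SE 0.34; 95% interval -0.84 to 0.76; edgeR adjusted p = 0.98). Itga8 measured 7.20, 1.82, 3.38 and 3.95 CPM with GFP and 6.77, 2.28, 1.93 and 2.58 CPM with Has2. Replicate 1 was high for Itga8 with both viruses, and the log2 fold change was -0.30 (SE 0.21; edgeR adjusted p = 0.681).

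The collagen-binding chains differed from each other in their pairs. Itga11 measured 113, 143, 64.8 and 85.7 CPM with GFP and 117, 199.9, 103 and 108 CPM with Has2. It was the only one of the 10 genes that was higher with Has2 in all 4 pairs, by 0.05, 0.48, 0.67 and 0.33 on the log2 scale, and 9.16% of all genes tested had that pattern. None was lower in all 4 pairs, beside 7.96% of all genes. Its means were 102 ± 33.9 and 132 ± 45.7 CPM (SD, n = 4 each). On the log2 scale the fitted change was 0.38 (SE 0.12; 95% interval 0.10 to 0.67). Its unadjusted edgeR p was 0.0151 and its adjusted edgeR p 0.648, so it did not pass over all genes. Itga1 measured 38.7, 27.4, 19.8 and 17.5 CPM with GFP and 46.8, 41.2, 12.8 and 10.2 CPM with Has2. Both female cultures were higher and both male cultures lower with Has2, which left a log2 fold change of -0.13 (SE 0.24; edgeR adjusted p = 0.898).

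Of the beta chains, Itgb1 measured 1909.8, 1711, 1507 and 1560.4 CPM with GFP and 2039, 1750.2, 1081 and 1118 CPM with Has2. The 2 male Has2 libraries were the lowest of the 8, for a log2 fold change of -0.21 (SE 0.14; 95% interval -0.53 to 0.12; edgeR adjusted p = 0.675). Itgb8 measured 23.5, 21.7, 14.9 and 14.3 CPM with GFP and 27.9, 36.3, 8.50 and 7.20 CPM with Has2. Here too the male Has2 libraries were lowest and the female Has2 libraries highest, and the log2 fold change over all pairs was -0.19 (SE 0.30; edgeR adjusted p = 0.863).

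Itgb3 and Itgb5, which share Itgav as a partner, had fold changes near 0. Itgb3 measured 83.1, 73.7, 83.2 and 91.1 CPM with GFP and 91.7, 58.7, 89.7 and 89.7 CPM with Has2, a log2 fold change of -0.03 (SE 0.11; 95% interval -0.29 to 0.24; edgeR adjusted p = 0.961). Itgb5 measured 729, 1096, 910.3 and 621 CPM with GFP and 621, 1000.3, 1090.4 and 704 CPM with Has2, a log2 fold change of 0.02 (SE 0.12; 95% interval -0.26 to 0.29; edgeR adjusted p = 0.972). For both genes the spread between preparations was wider than the difference between the viruses.

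The averages hide opposite differences in the pairs. Of the 10 genes, 6 were lower with Has2 in both male pairs, and 7 had both female pairs on one side of 0 and both male pairs on the other. The share of all genes with these patterns was not counted. The difference between the male and the female log2 fold change was tested over all genes with the replicate number as a block. For Itga4 the log2 fold change was 0.72 in female and -0.88 in male pairs, a difference of -1.60 (SE 0.20; 95% interval -2.03 to -1.17; edgeR adjusted p = 0.00019). For Itgb8 it was 0.49 and -0.89, a difference of -1.39 (SE 0.18; edgeR adjusted p = 0.000274), and for Itga1 0.43 and -0.70, a difference of -1.13 (SE 0.15; edgeR adjusted p = 0.000292). These 3 genes have the lowest transcript GC content of the 10.

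Itgav, at 0.26 in female and -0.61 in male pairs, differed by -0.87 (SE 0.13; edgeR adjusted p = 0.000781). Itga8, at 0.08 and -0.71, differed by -0.78 (SE 0.24; edgeR adjusted p = 0.0342), and Itgb1, at 0.06 and -0.48, by -0.54 (SE 0.13; edgeR adjusted p = 0.0102). In the other direction Itgb5, at -0.18 and 0.22, differed by 0.40 (SE 0.13; edgeR adjusted p = 0.0381). Itga5 (0.33, SE 0.13; edgeR adjusted p = 0.0824), Itga11 (0.23, SE 0.17; edgeR adjusted p = 0.332) and Itgb3 (0.13, SE 0.16; edgeR adjusted p = 0.57) did not pass. So 7 of 10 genes passed, beside 29.5% of all genes tested: 6 had a lower log2 fold change in male pairs, beside 18% of all genes, and 1 a higher one, beside 11.5%.

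**Figure D2:**
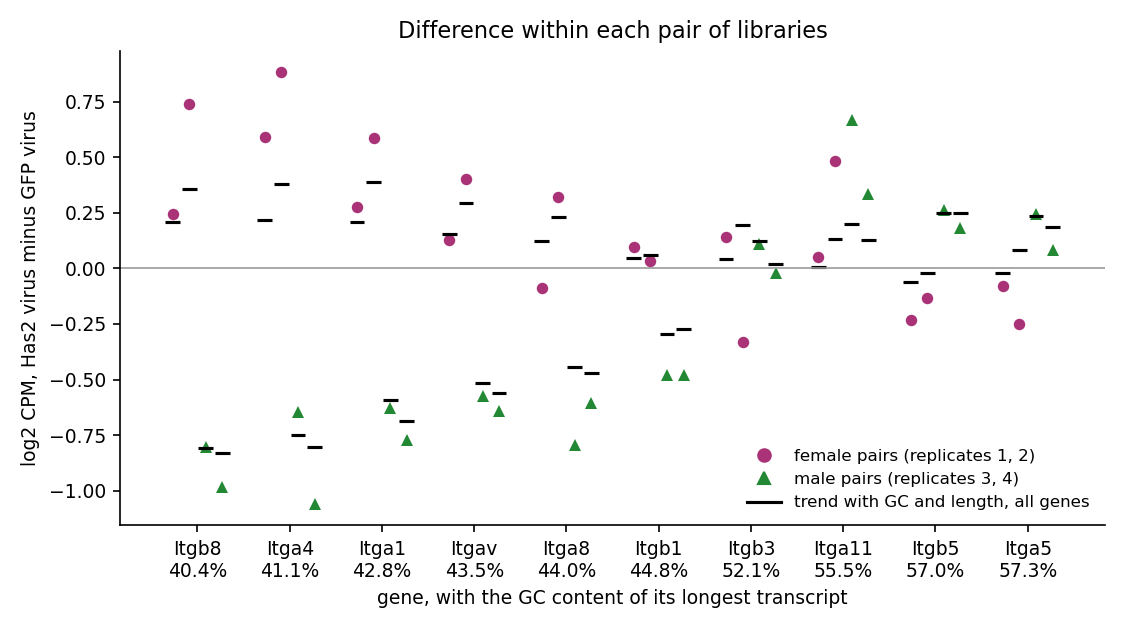
Difference in log2 CPM between the Has2 and the GFP library of each pair, for the 10 integrin genes in order of the GC content of the longest transcript. Purple circles are the female pairs and green triangles the male pairs, left to right replicates 1 to 4, and black dashes give the all-gene trend at that gene's GC content and length in the same pair. In the 6 genes under 45% GC the male pairs lie between -0.48 and -1.06.

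The 6 genes with a lower value in male pairs are the 6 with a transcript GC content under 45%. That class holds 3804 of the genes tested, and 54.1% of them were called lower in male pairs and 1.37% higher, with a median difference of -0.69. Among the 3370 genes at 55% GC or more, the class of Itga5, Itga11 and Itgb5, 24.7% were called higher and 0.119% lower, with a median difference of 0.31. Itgb3 lies in the class from 50% to 55%, where 15.3% were called higher and 1.23% lower. The integrin calls, 6 of 6 in the low class, 0 of 1 in the middle class and 1 of 3 in the high class, stand beside these shares; the calls over the table as a whole were split by base composition in the same direction.

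The trend over all genes, fitted to each library as a smooth curve of GC content and transcript length, can be set beside each pair. For Itga1 the pair differences were 0.28, 0.59, -0.63 and -0.77 in log2 CPM, and the trend at its GC content and length was 0.21, 0.39, -0.59 and -0.69. For Itgb8 they were 0.25, 0.74, -0.81 and -0.98, with a trend of 0.21, 0.36, -0.81 and -0.83. For Itgb5 they were -0.23, -0.13, 0.26 and 0.18, with a trend of -0.06, -0.02, 0.25 and 0.25. Over all 10 genes, 36 of the 40 pair differences, all from the same 4 pairs, had the sign of the trend. The like share over all genes was not counted. Whatever gave rise to the trend was not tested.

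With the trend removed from every library, 0 of the 10 integrin genes were called for the difference between male and female pairs, while 11% of all genes still were (913 higher and 756 lower in male pairs, against 1748 and 2722 as counted), and 1 of 10 integrin genes was at an unadjusted p under 0.05, beside 25.8% of all genes. Itga4 kept the largest difference, -0.53 (SE 0.17; 95% interval -0.91 to -0.15; edgeR adjusted p = 0.0761). The other 9 ranged from -0.29 for Itgb8 to 0.18 for Itgb3. Without the replicate block edgeR called 0 of 10 as counted and 0 of all genes, with 3 of 10 and 13.3% at an unadjusted p under 0.05. Without replicate 3 or without replicate 4 the calls for Itga8, Itgb1 and Itgb5 were lost, which left 4 of 10, beside 17.5% and 15.5% of all genes; the call for Itgb5 was also lost without replicate 1 and with library totals (edgeR adjusted p = 0.0637), and that for Itga8 without replicate 2 and with DESeq2 (adjusted p = 0.106). For the virus comparison itself, removing the trend left Itga11 at 0.27 (SE 0.08; 95% interval 0.08 to 0.46; edgeR adjusted p = 0.398).

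**Figure D3:**
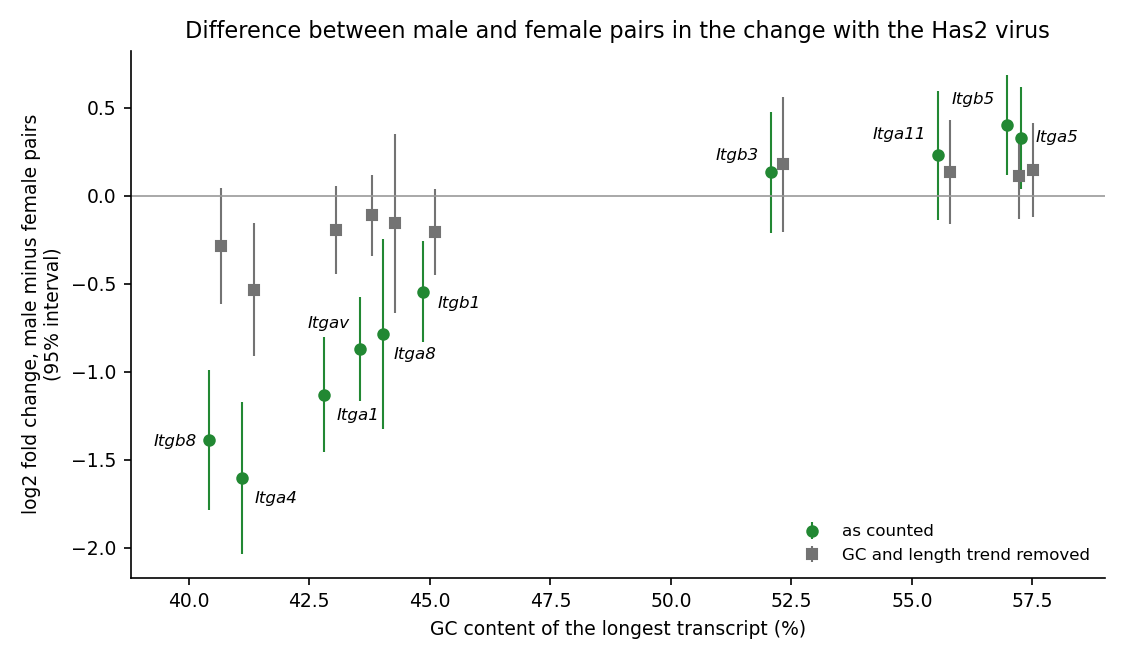
Difference between male and female pairs in the log2 fold change of Has2 against GFP virus, plotted against the GC content of the longest transcript for the 10 integrin genes. Green circles are the values as counted and grey squares, moved slightly to the right, those with the trend of GC content and length removed; lines are 95% intervals. As counted the 6 genes under 45% GC lie between -1.60 and -0.54, and without the trend all 10 lie between -0.53 and 0.18.

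Other values moved with this split. The rise of Has2 itself was smaller in male pairs, by 1.66 on the log2 scale (SE 0.38; edgeR adjusted p = 0.00844). The share of counts from mitochondrial genes was 1.88% with Has2 against 1.02% with GFP and 0.909% against 0.662% in the female pairs, and 0.417% against 0.702% and 0.603% against 0.940% in the male pairs, so it too was higher with Has2 in the female and lower in the male pairs. Of 12 fibroblast markers 4 were called lower in male pairs (Dcn, Lum, Ddr2 and Fap) and 0 higher, beside 18% and 11.5% of all genes. With the trend removed 0 were called lower and 1 higher, beside 4.99% and 6.03% of all genes. Of 16 macrophage markers tested, 13 had a higher log2 fold change in male than in female pairs. The like share of all genes was not counted. Of the 16, 7 were called higher and 2 lower, beside 11.5% and 18% of all genes. With the trend removed 1 was called higher and 0 lower, beside the same 6.03% and 4.99%. The summed macrophage marker level went from 2577 to 2422 and from 1043 to 974 CPM in the female pairs and from 1878 to 2113 and from 2375 to 2752 CPM in the male pairs. The part of all these in the integrin values was not tested.

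The make-up of the integrin mRNA, taken as shares of level per length within a library, does not depend on library scaling. It does depend on the gene length used, here that of merged exons. Protein at the cell surface and the pairing of chains were not measured. Among the beta chains other than Itgb1 that pair with Itgav, Itgb5 held 93.4% ± 1.86 with GFP and 93.4% ± 2.28 with Has2 (SD, n = 4 each), Itgb3 3.37% to 8.07% and Itgb8 0.238% to 1.31% over the 8 libraries. Itgb6, the epithelial member of that set, did not pass 0.0134%. Among the collagen-binding chains Itga11 held 86.9% to 94.5%, and its share was higher with Has2 in both male pairs, at 93.6% against 88.0% and 94.5% against 89.7%. It was lower with Has2 in both female pairs, at 86.9% against 88.2% and 92.8% against 93.1%. With the longest transcript as the length, the Itga11 share ranged from 81.9% to 93.1%, and each pair kept its direction.

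Itgav held 32.4%, 19.6%, 22.3% and 23.2% of the sum of Itga5, Itga8 and Itgav with GFP and 35.6%, 27.7%, 14.0% and 15.5% with Has2. It was larger with Has2 in both female pairs and smaller in both male pairs, while the group means, 24.4% ± 5.54 and 23.2% ± 10.3 (SD, n = 4 each), differed by less than the spread. The level of Itgb1 was 3.38, 3.29, 3.13 and 2.62 times the summed level of all alpha chains with GFP and 3.56, 3.14, 2.00 and 1.90 times with Has2. Its 2 lowest values were those of the male Has2 cultures. With the longest transcript as the length, the Itgav share ranged from 18.2% to 42.9% and the Itgb1 multiple from 1.70 to 3.02. Each pair kept its direction. Itga5 and Itga11 have a higher transcript GC content than Itgav, Itga1 and Itgb1, and its part in these shares was not tested.

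**Figure D4:**
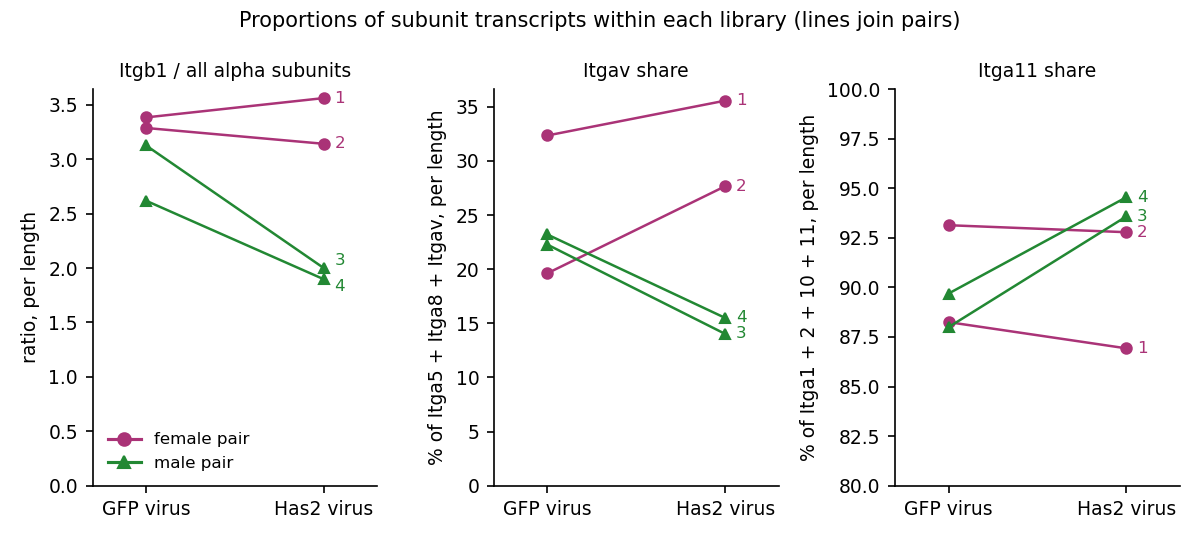
Itgb1 as a multiple of all alpha subunits, and Itgav and Itga11 as percentages of their sets, all per kilobase of merged exon, in each library. Lines join the GFP and the Has2 library of a pair, numbered by replicate, with purple circles for female and green triangles for male pairs; the axis of the Itga11 panel starts at 80%. Itgb1 stands at 2.00 and 1.90 times the alpha subunits in the male Has2 cultures, its lowest values.

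The 10 genes made up 93.4% to 97.3% of the summed level per length of all integrin subunits. Of 17 other subunits 14 were tested, and edgeR called 0 for the virus (10 above and 4 below 0, median 0.10) with 0 at an unadjusted p under 0.05. DESeq2 and limma-voom with the block called 0 of these, and 0 of all 74 genes in this and the next 3 lists. The highest in level were the leukocyte beta chain Itgb2 (12.4 CPM per kilobase; log2 fold change 0.11), Itga9, a receptor chain for tenascin (7.71; 0.10), the laminin-binding Itga6 (4.94; -0.04) and the macrophage alpha chain Itgam (3.43; 0.18). Itgb2, an index of leukocyte RNA, measured 44.7, 15.7, 32.9 and 51.3 CPM with GFP and 42.1, 15.4, 43.1 and 57.0 CPM with Has2. Male and female pairs differed for 1 of the 14 other subunits tested, beside 29.5% of all genes. It was Itga2, a collagen receptor chain with a transcript GC content of 43.7%, by -1.03 (edgeR adjusted p = 0.0168). With the trend removed Itga2 differed by -0.28 (edgeR adjusted p = 0.55).

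Vtn, the ligand gene that encodes vitronectin, was not among the genes tested. It stood at 17.6 CPM in GFP replicate 1 and at 0.0657 CPM or less in every other library. Of 23 ligand genes tested, 0 passed edgeR's test for the virus (15 above and 8 below 0, median 0.04), with 2 at an unadjusted p under 0.05. The balance turned with the trend removed, to 7 above and 16 below 0 with a median of -0.05. Fn1, encoding fibronectin, was at 0.44 (SE 0.14) and Spp1, encoding osteopontin, at -0.45 (SE 0.16) on the log2 scale, both at an edgeR adjusted p of 0.648. Postn, encoding periostin, was at -0.47 (SE 0.20; edgeR adjusted p = 0.648). Male and female pairs differed for 3 of the 23 ligands, beside 29.5% of all genes: Mfge8, which bridges apoptotic cells to Itgav receptors, by 0.37, Spp1 by -0.58 and Postn by -0.88. With the trend removed none of these 3 was called, and Postn changed sign, to 0.36. The 1 ligand called then, beside 11% of all genes, was Vcam1 (0.61, edgeR adjusted p = 0.0106), an adhesion molecule bound by Itga4 receptors. As counted Vcam1 went the other way, with pair differences of 0.01 and -0.10 in the female and -0.19 and -0.31 in the male pairs.

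Of 25 activators and adaptors 0 passed edgeR's test for the virus, with 19 above and 6 below 0, a median of 0.13 and 3 at an unadjusted p under 0.05. Those 3 were the focal adhesion proteins Pxn, encoding paxillin (0.30, SE 0.09), and Zyx, encoding zyxin (0.25, SE 0.08), and Rsu1, a partner of the Lims proteins (0.24, SE 0.08), each at an edgeR adjusted p of 0.648. Male and female pairs differed for 7 of the 25, beside 29.5% of all genes, higher for Fermt3 (0.46) and Ilk (0.39) and lower for Fermt2 (-0.45), Lims1 (-1.22), Rap1a (-1.32), Rap1b (-0.80) and Rasa1 (-1.48). Rap1a and Rap1b encode small GTPases that help talin switch integrins on, and Fermt2 and Fermt3 encode kindlins. Of these 7, 3 were still called with the trend removed: Lims1 (-0.42; edgeR adjusted p = 0.0408), Rap1a (-0.53; edgeR adjusted p = 0.0247) and Rasa1 (-0.77; edgeR adjusted p = 0.0023). A further 2 were called higher only then, Apbb1ip (0.59; edgeR adjusted p = 0.019) and Parva (0.51; edgeR adjusted p = 0.0166), which makes 5 of 25, beside 11% of all genes. As counted Apbb1ip was not higher in male pairs, with pair differences of 0.53 and 0.17 in the female and 0.14 and 0.14 in the male pairs. Those of Parva were 0.07 and 0.04 in the female and 0.26 and 0.18 in the male pairs. The choice to name Vcam1, Apbb1ip and Parva came after seeing their values.

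Of 12 inhibitors and trafficking genes 0 passed edgeR's test for the virus, with 5 above and 7 below 0, a median of -0.03 and 1 at an unadjusted p under 0.05. This became 9 above and 3 below 0, with a median of 0.03, once the trend was removed. The smallest p-values were those of the recycling GTPase Rab11a (-0.30, SE 0.11), the clathrin adaptor Dab2 (0.27, SE 0.11) and Nisch (0.15, SE 0.09), at edgeR adjusted p-values of 0.648, 0.648 and 0.66. Rab11a changed sign with the trend removed, to 0.063. Male and female pairs differed for 5 of the 12, beside 29.5% of all genes: Snx17 (0.56), Hax1 (0.55) and Dok1 (0.52) were higher and Dab2 (-0.39) and Rab21 (-0.47) lower in male pairs. With the trend removed 0 of these 5 were called, and Rab21 changed sign, to 0.18. The 1 gene of the list called then, beside 11% of all genes, was Rab11a, higher in male pairs by 0.41 (edgeR adjusted p = 0.0251). As counted Rab11a went the other way, with pair differences of -0.06 and -0.21 in the female and -0.55 and -0.37 in the male pairs.

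Across the 8 libraries the tested gene whose log2 CPM profile lay closest to an integrin gene, by the root mean square difference of mean-centred values, was Cask for Itgb1 (0.06), Galnt7 for Itgav (0.06), Atp9a for Itgb5 (0.06), Nrm for Itga5 (0.05) and Acin1 for Itgb3 (0.05). For the other genes it was Adamts5 for Itgb8 (0.10), Wnk4 for Itga11 (0.11), Rapgef5 for Itga8 (0.16) and Prex2 for Itga4 (0.21). Within the 10, the closest profile to Itga1 was that of Itgb8, and to Itgav that of Itgb1.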

How the data were processed

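The deposited table holds raw, unnormalised counts by Ensembl identifier for all 8 libraries. Per the labels' protocols, RNA was extracted with Trizol and libraries were made with a stranded mRNA kit. Per the submitters' processing notes, FastQC 0.10.1 and HTSeq 0.10.0 were used with mm39 (GRCm39) as the build. Aligner, annotation release and use of strand were not given in the sources used here, so how reads of overlapping genes were assigned is unknown. Symbols, exon lengths, coding sequences and GC content came from GENCODE M21, on an older build, and no coordinates are given. Of 55414 identifiers 52081 had a symbol, and 99.8% of the genes tested had a GC value.

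The integrin genes and lists were chosen with earlier results of these data known. Testing used the quasi-likelihood F-test of edgeR 4.0.16 in R 4.3.3, with TMM scaling, the package's expression filter and the replicate number as a block. A gene was called where its p, Benjamini-Hochberg adjusted over all genes tested, lay under 0.05. The pairing comes from the preparation identifiers, and within pairs 1 to 4 the deviations of paired libraries had correlations of 0.58, 0.62, 0.53 and 0.44. The difference between sexes was an interaction in the same fit. CPM use effective library sizes. Named are all 10 members, the 4 highest other subunits, and in each list called genes and the 3 with the smallest p; likeness used log2 CPM with a prior count of 2, and 1 such result is not reported here. Alternatives were no replicate block, other scalings and filters, DESeq2 1.42.0, limma-voom (limma 3.58.1), each replicate left out, another gene length, and removal from every library of a trend of GC content and log2 length, each a spline with 5 degrees of freedom; that trend without the block was added after seeing the data. The tests were tested on simulated data. A Cre virus that the protocol mentions was not analysed here.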

Additional observations from a re-analysis of the deposited data

Results flagged for a closer look

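Within the 20 groups of 4 libraries (10 integrin genes, 2 viruses), 3 held a library that stood apart by Dixon's test at the 95% level, where chance gives about 1 in 20. These were Itga8 at 6.77 CPM in Has2 replicate 1, Itga11 at 199.9 CPM in Has2 replicate 2 and Itgb3 at 58.7 CPM in Has2 replicate 2. Without replicate 1 the log2 fold change of Itga8 was -0.35, and without replicate 2 that of Itgb3 was 0.077. That of Itga11 ranged from 0.29 to 0.52 as each replicate was left out.

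The difference in log2 fold change between male and female pairs, with the replicate block, passed edgeR's test for 7 integrin members: Itga4 (-1.60), Itgb8 (-1.39), Itga1 (-1.13), Itgav (-0.87), Itga8 (-0.78), Itgb1 (-0.54) and Itgb5 (0.40). It also passed for Has2 (-1.66) and, among the related lists, for Itga2 (-1.03), Postn (-0.88), Spp1 (-0.58), Mfge8 (0.37), Rasa1 (-1.48), Rap1a (-1.32), Lims1 (-1.22), Rap1b (-0.80), Fermt2 (-0.45), Fermt3 (0.46), Ilk (0.39), Rab21 (-0.47), Dab2 (-0.39), Snx17 (0.56), Hax1 (0.55) and Dok1 (0.52). With 2 pairs per sex, each preparation weighs heavily, and sex cannot be told apart from preparation series.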

How the results depend on the processing

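For the virus, 0 of the 10 integrin genes were called under any of the 14 alternatives run. The count over all genes, 1 in the main test, was 0 with library totals, 118 with no expression filter, 6 with a mean of at least 1 CPM, 61 with DESeq2, 2 with the trend removed and 0 to 1 without a replicate. Has2 itself fell short of the threshold with library totals (8.45) and without replicate 1, and ranged from 7.95 to 8.82 without a replicate. Some signs turned. Without the block Itga1 was 0.10, Itga4 0.23 and Itgb8 0.10; limma-voom gave Itga4 0.039. With the trend removed, Itga1, Itga4, Itga5, Itgb5, Itgb8 and Rab11a were 0.039, 0.19, -0.12, -0.085, 0.073 and 0.063, and without the block as well 0.068, 0.23, -0.11, -0.082, 0.14 and 0.078. Itga5 was -0.012 with library totals and -0.0040 with a mean of at least 1 CPM; Itgb3 was 0.0018 with scaling without Has2 counts and 0.0016 with no expression filter. Without a replicate the ranges were -0.37 to 0.11 for Itga1, -0.36 to 0.33 for Itga4, -0.081 to 0.084 for Itga5, -0.36 to 0.015 for Itgav, -0.069 to 0.077 for Itgb3, -0.061 to 0.13 for Itgb5, -0.51 to 0.10 for Itgb8 and -0.14 to 0.076 for Itga6.

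For the difference between male and female pairs, called for 4470 genes and 7 of the 10 integrin genes, no replicate block gave 0 and 0, the trend removed 1669 and 0, and a replicate left out 2353 to 4982 and 4 to 8. With the trend removed Postn turned to 0.36 and Rab21 to 0.18. The values of the members that did not pass also moved with the replicates kept. Without a replicate Itga5 ranged from 0.25 to 0.44, Itga11 from 0.033 to 0.45 and Itgb3 from -0.10 to 0.39. The cause was not tested. With 4 pairs, intervals of the least abundant genes, Itga4 and Itga8, were among the widest.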
